A study of Mus musculus with 104 samples.

Results

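Aminoacyl-tRNA synthetases are the enzymes that join each amino acid to its transfer RNA, and their genes form a cytosolic and a mitochondrial class. The 35 synthetase genes described here, 19 cytosolic and 16 mitochondrial, were taken by name from the 45808 gene rows of the deposited table, without regard to their values. A gene whose symbol ends in 2 was counted as mitochondrial and the others as cytosolic. Of the 45808 genes, 9113 passed a filter on low values, which asked for a level of at least 10 CPM over all libraries pooled, and for counts in 25% or more of 1 group's libraries. CPM is a gene's count scaled to a common library total of gene counts. All 19 cytosolic members passed it, as did 11 of the 16 mitochondrial members. Ears2, Mars2, Pars2, Vars2 and Wars2 did not pass.

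The values come from 104 Smart-seq2 libraries, a full-length cDNA method, each made from the content of 1 mouse neuron drawn into a patch pipette. The titles divide them into 38 experiment and 66 control libraries, all labelled as dopaminergic neurons of the substantia nigra, a midbrain nucleus that degenerates in Parkinson disease. The design text describes neurons of the substantia nigra pars compacta (SNc) picked because they carried inclusions of α-Syn-6H-EGFP, a fluorescent reporter containing synuclein. What the control neurons were is not stated in the sources used here, which also give no strain, age, genotype, promoter of the reporter or animal for any library. With no animal named, a group is 1 sample without a test, and every interval below covers counting error only. The libraries fall into 2 sets by the style and record order of the titles, called title sets here, which the labels do not call batches. Title set 1 held 21 experiment and 31 control libraries, and title set 2 held 17 experiment and 35 control libraries.

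Gene counts per library were between 116567 and 3094036 in experiment libraries, with a median of 960027, and between 153770 and 2577694 in control libraries, with a median of 1039851. Th, the rate-limiting enzyme of dopamine synthesis, had counts in all 38 experiment and all 66 control libraries, at 5277 CPM in experiment and 9726 CPM in control libraries. The summed level of 8 dopaminergic markers had a median of 16043 CPM (lowest 578, highest 23317) in experiment libraries. In control libraries the median was 21327 CPM (lowest 2016, highest 34320), and the ratio of pooled sums was 0.69. Markers of other cell types moved with the groups. The summed markers of glia (astrocytes, microglia and oligodendrocytes) stood at a median of 1511 CPM (lowest 58.3, highest 14840) in experiment libraries and 866 CPM (lowest 144, highest 10060) in control libraries. GABAergic markers had a median of 140 CPM (lowest 0, highest 1750) in experiment libraries and 51.1 CPM (lowest 0, highest 1038) in control libraries. The median share of ERCC spike-in counts was 0.421% in experiment and 0.251% in control libraries. Counts of genes of the mitochondrial genome had a median share of 4.33% in experiment and 2.72% in control libraries, with 3.96% and 1.65% in title set 1. The part of these differences in the results below was not tested, except where a value without such libraries is given.

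A synthetase uses ATP to activate its amino acid and then transfers it to the matching tRNA, so that ribosomes receive a correctly charged adaptor. Most amino acids have separate nuclear genes for the cytosolic and the mitochondrial enzyme, while Gars and Kars each encode both forms. Uncharged tRNA activates the kinase GCN2, which leads to translation of the transcription factor ATF4. ATF4 raises transcription of amino acid transporters, biosynthetic enzymes and many cytosolic synthetases, the amino acid response. In mice and humans, inherited changes of several synthetases cause disease of neurons.

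Some promoters of the cytosolic class carry a letter pattern, TGATGNAA, that ATF4 is known to bind with partner proteins. Those that hold it are shown here because 3 of them belong to members that differed between the groups. Promoter windows of 300 bases, 250 before and 50 after the transcription start, came from RefSeq (GRCm38.p6) and were used for 26 of the 35 members. TGATGNAA, searched on both strands, was present in 1273 of all 32544 promoters, or 3.91%. Among members with a promoter it was present in 5 of 12 cytosolic genes and in 0 of 14 mitochondrial genes. All 5 were among the 7 response targets with a promoter, and 0 of the 5 other cytosolic promoters held it. The target list was written with earlier results of these data known, so this division is not independent support. Of the 16 amino acid response genes described below, 15 had a promoter and 5 of these held the motif. The sequences are written 5′ to 3′ on the strand of the gene, with the motif in capitals. It lies on the opposite strand, and so reads as the reverse complement, in all but Yars.

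Aars, chr8:111033592-111033891, plus strand: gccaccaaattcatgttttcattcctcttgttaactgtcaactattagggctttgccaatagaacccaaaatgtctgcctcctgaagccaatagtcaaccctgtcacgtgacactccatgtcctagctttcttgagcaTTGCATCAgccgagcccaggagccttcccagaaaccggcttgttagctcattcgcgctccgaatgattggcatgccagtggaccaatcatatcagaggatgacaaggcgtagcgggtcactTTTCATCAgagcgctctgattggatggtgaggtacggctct
Gars, chr6:55037751-55038050, plus strand: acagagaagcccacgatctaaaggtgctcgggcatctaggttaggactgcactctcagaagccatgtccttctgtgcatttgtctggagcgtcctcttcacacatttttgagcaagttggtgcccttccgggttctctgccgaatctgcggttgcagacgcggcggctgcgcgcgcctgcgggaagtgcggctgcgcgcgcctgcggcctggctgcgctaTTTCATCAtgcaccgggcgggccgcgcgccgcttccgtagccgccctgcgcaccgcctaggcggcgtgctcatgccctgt
Iars, chr13:49681880-49682179, plus strand: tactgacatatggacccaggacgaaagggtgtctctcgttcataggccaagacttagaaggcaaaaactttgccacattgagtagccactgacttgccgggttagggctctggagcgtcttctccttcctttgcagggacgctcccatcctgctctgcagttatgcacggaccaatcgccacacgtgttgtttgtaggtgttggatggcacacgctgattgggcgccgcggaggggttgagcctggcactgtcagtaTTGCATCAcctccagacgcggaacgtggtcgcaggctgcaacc
Tars, chr15:11399609-11399908, minus strand: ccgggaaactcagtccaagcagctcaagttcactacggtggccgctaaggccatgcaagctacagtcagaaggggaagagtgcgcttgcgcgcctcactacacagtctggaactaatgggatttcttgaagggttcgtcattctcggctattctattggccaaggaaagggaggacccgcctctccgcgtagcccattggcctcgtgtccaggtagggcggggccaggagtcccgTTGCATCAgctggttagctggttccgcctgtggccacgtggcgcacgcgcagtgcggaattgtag
Yars, chr4:129189653-129189952, plus strand: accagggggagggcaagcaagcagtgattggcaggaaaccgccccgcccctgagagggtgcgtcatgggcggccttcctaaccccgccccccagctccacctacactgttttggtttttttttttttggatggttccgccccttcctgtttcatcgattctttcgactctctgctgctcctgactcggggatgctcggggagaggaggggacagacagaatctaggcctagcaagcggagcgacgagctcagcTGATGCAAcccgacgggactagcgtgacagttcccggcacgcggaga

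Positions count the first transcribed base as 1, with no position 0. The motif began at -112 and again at 10 in the alanyl gene Aars, and at -30 in the glycyl gene Gars. It began at -15 in the threonyl gene Tars, at 8 in the isoleucyl gene Iars and at 4 in the tyrosyl gene Yars. Aars, Gars and Tars were among the members higher in experiment libraries by the rule given below, and Iars and Yars were not. The related palindrome TGACGTCA was found in 0 of the 26 member promoters and in 1.8% of all promoters. A match is a description of letters in this window, and its absence from Dars and Sars, which also met that rule, says nothing of the factors that act there. Cars, the other member that met that rule, had no promoter window and was not searched.

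The cytosolic synthetases together were more abundant in experiment libraries. Their counts, 148431 in experiment and 206563 in control libraries, made up 3695 CPM (95% Poisson interval 3676 to 3714) of pooled experiment counts and 2779 CPM (2767 to 2791) of pooled control counts. The ratio was 1.33 (95% interval 1.32 to 1.34). By library, the sum had a lowest value of 1069, a median of 3426 and a highest value of 7566 CPM in experiment libraries, against 1394, 2758 and 4041 CPM in control libraries. Experiment libraries were spread more widely, with an SD of 1525 CPM over 38 libraries against 532 CPM over 66 control libraries. The groups overlapped: 28 of 38 experiment libraries lay above the control median, 13 lay above the highest control library and 1 lay below the lowest.

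The mitochondrial synthetases showed a smaller difference. Their 16 genes held 490 CPM (483 to 497) in experiment and 455 CPM (450 to 460) in control libraries, a ratio of 1.08 (95% interval 1.06 to 1.10). Lars2 alone held 139 CPM of this in experiment and 91.0 CPM in control libraries, a wider gap than the class sum had. The other mitochondrial members together were thus slightly lower in experiment libraries. The library sum had a lowest value of 78.4, a median of 423 and a highest value of 1606 CPM in experiment libraries, against 37.7, 435 and 1583 CPM in control libraries. Thus the median library of each group was nearly level, and 16 of 38 experiment libraries lay above the control median. Leaving out the experiment library numbered 43 turned the pooled ratio to 0.98.

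**Figure D1:**
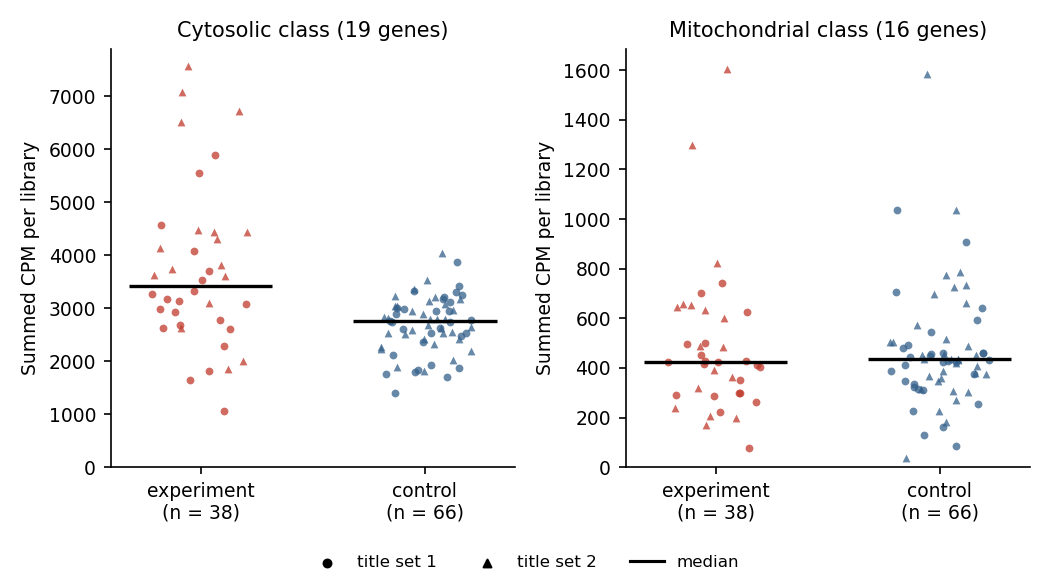
Summed CPM of the 19 cytosolic synthetases (left) and the 16 mitochondrial synthetases (right) in each library, on linear axes; circles are title set 1, triangles title set 2 and bars the group medians. In the cytosolic panel 13 of 38 experiment libraries lie above the highest control library, while the mitochondrial medians are 423 CPM in experiment and 435 CPM in control libraries.

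A member was called higher or lower if it passed the filter and differed by at least 1.5-fold in the same direction by both pooled CPM and the mean of library CPM, which weights libraries equally. Of all 9113 genes past the filter, 7.77% were called higher and 11.0% lower. In the cytosolic class 6 of 19 members were called higher and 0 lower, while in the mitochondrial class 0 of the 11 that passed the filter were called higher and 2 lower. By the same rule 7 of 8 astrocyte, 2 of 5 microglial, 1 of 6 oligodendrocyte and 3 of 4 GABAergic markers past the filter were called higher. Of the 8 dopaminergic markers 0 were called higher and 2 lower (Th and Foxa2), and 7 lay below 1 by both weightings. By pooled CPM alone, 1.5-fold was reached by 4 of the 5 microglial, 2 of the 6 oligodendrocyte and 4 of the 4 GABAergic markers. Gata3, on the GABAergic list, passed the filter only through experiment libraries. The median log2 ratio of pooled CPM was 0.33 over the 19 cytosolic members and -0.26 over the 11 mitochondrial members, beside -0.03 over all 9113 genes. With libraries weighted equally the cytosolic median was 0.38 and the mitochondrial median was 0.13, so the sign of the mitochondrial median depends on the weighting. A CPM is a share of a library's counts, so a gene's own change and a change of the rest of the library cannot be told apart.

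**Figure D2:**
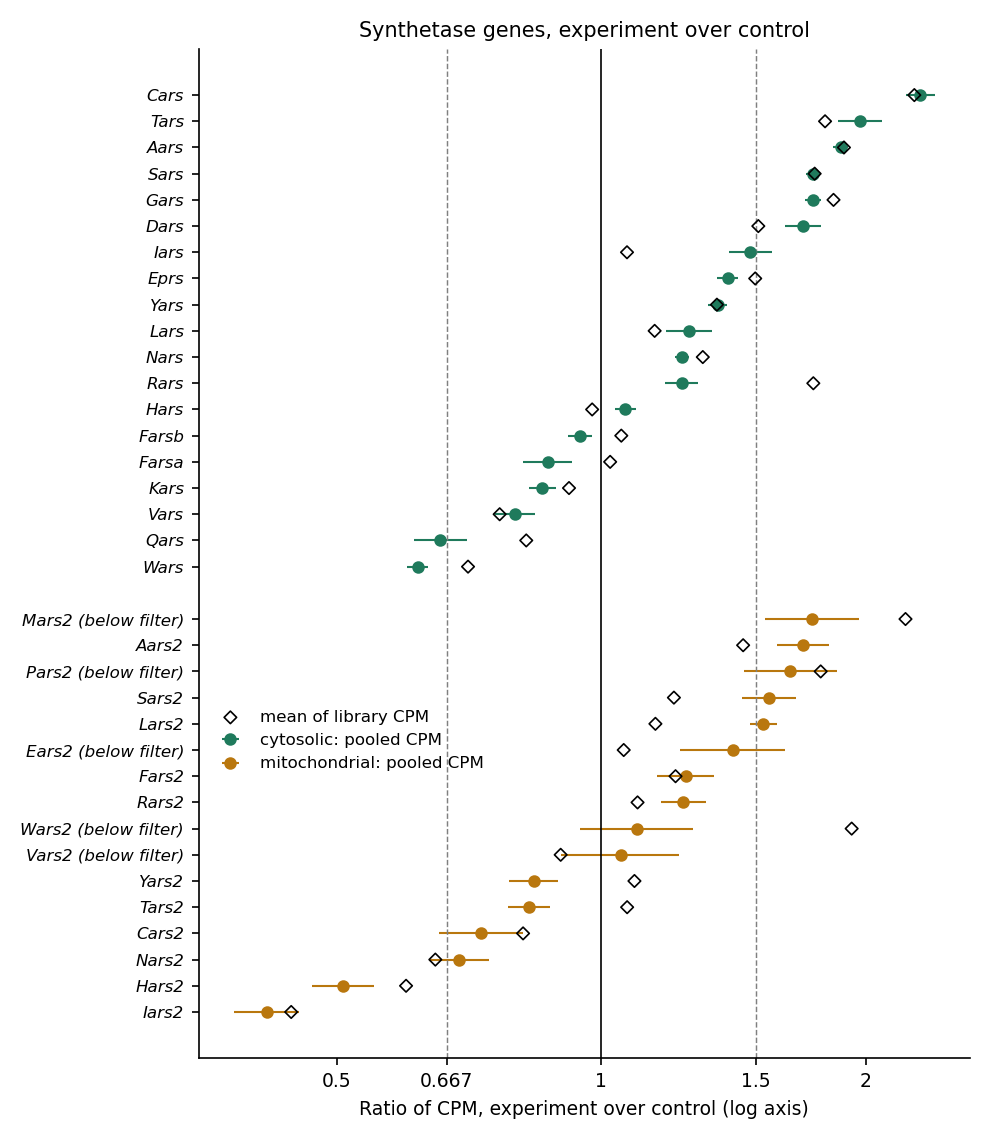
Ratio of CPM, experiment over control, for each member on a log axis. Filled points are pooled CPM with 95% intervals for counting error (cytosolic above, mitochondrial below), open diamonds the ratio of mean library CPM, and dashed lines the 1.5-fold limits. Of the 19 cytosolic members 6 lie beyond 1.5-fold by both measures, led by Cars at 2.31, while of the mitochondrial members Hars2 and Iars2 lie below the lower limit by both.

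The 6 cytosolic members called higher charge cysteine, threonine, alanine, serine, glycine and aspartate. Cars, the cysteinyl gene (chr7:143557230-143600090, GRCm38), had the highest ratio of the class. Its CPM was 0 in the lowest, 115 in the median and 542 in the highest experiment library, against 0, 42.2 and 651 CPM in control libraries. The highest value of all was a control library, and 26 of 38 experiment libraries exceeded the control median. Pooled, Cars had 151 CPM in experiment and 65.4 CPM in control libraries, a ratio of 2.31 (2.22 to 2.40).

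Aars, the alanyl gene, had 0, 439 and 1610 CPM in the lowest, median and highest experiment libraries, against 0, 242 and 568 CPM in control libraries. Of the 38 experiment libraries 29 exceeded the control median for Aars. The pooled levels of 503 CPM in experiment and 268 CPM in control libraries gave a ratio of 1.87 (1.84 to 1.91). Its exons share 13.5% of their 50-base stretches with the overlapping gene Exosc6. No level of Exosc6 was available to compare, so how reads from that stretch were counted cannot be told.

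Sars, the seryl gene (chr3:108424865-108445209), was the member most often high, with 30 of 38 experiment libraries above the control median and 27 above the upper control quartile. Its lowest, median and highest values were 0, 541 and 1659 CPM in experiment libraries and 7.81, 335 and 565 CPM in control libraries. Pooled, Sars held 593 CPM in experiment and 341 CPM in control libraries, a ratio of 1.74 (1.71 to 1.77). Seryl-tRNA is also the starting point for selenocysteine. Gars, the glycyl gene that supplies both compartments, had 0, 290 and 1056 CPM in the lowest, median and highest experiment libraries, against 0, 221 and 524 CPM in control libraries. The Gars groups overlapped more, with 24 of 38 experiment libraries above the control median. Its pooled ratio was 1.74 (1.70 to 1.78), with 383 CPM in experiment and 220 CPM in control libraries.

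Tars and Dars rested more on single libraries. Tars, the threonyl gene, was at 0, 13.3 and 447 CPM in the lowest, median and highest experiment libraries, against 0, 10.8 and 260 CPM in control libraries. The medians were close, 20 of 38 experiment libraries lay above the control median, and experiment library 46 alone held 28.6% of the Tars counts of its group. The pooled ratio of 1.97 (1.86 to 2.09) became 1.46 without that library, and the call was lost. The log2 ratio of Tars turned to -0.76 in titles 13 to 37 of set 1 and to -0.66 among libraries at or below the median ERCC share. Dars, the aspartyl gene (chr1:128363707-128417368) and the sixth by size of change, had 0, 42.4 and 561 CPM in experiment libraries against 0, 29.9 and 288 CPM in control libraries. Its ratio was 1.70 (1.62 to 1.78) by pooled CPM and 1.51 with equal weights, at the edge of the rule. The Dars call was lost on leaving out any of 43 of the 104 libraries, with a ratio of 1.32 without experiment library 46. In titles 1 to 10 of set 1 its log2 ratio was -0.22. The calls of Aars, Cars, Gars and Sars were kept whichever single library was left out.

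**Figure D3:**
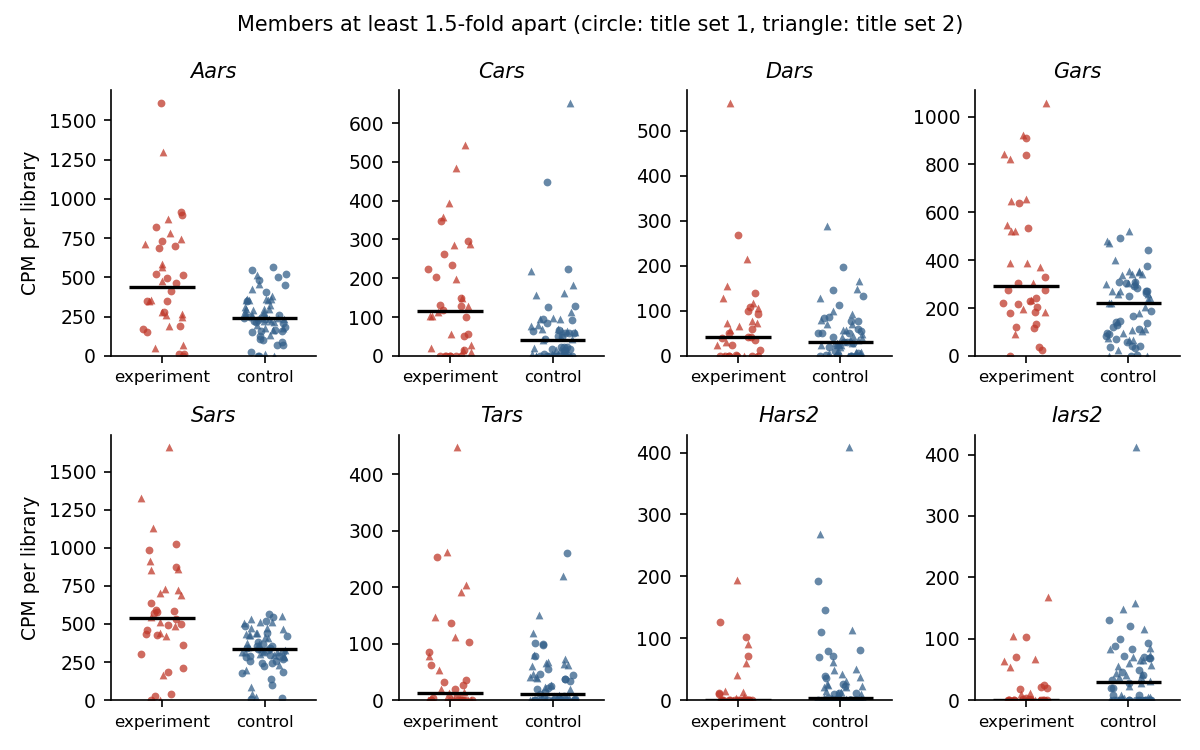
CPM per library of the 8 members at least 1.5-fold apart by both weightings, experiment left and control right in each panel, on linear axes that differ between panels; bars are medians. For Aars, Dars, Gars, Sars and Tars the highest value is in an experiment library, and for Cars in a control library. For Hars2 and Iars2 the experiment median is 0 CPM.

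The other 13 cytosolic members did not meet the rule. Iars, the isoleucyl gene, had a pooled ratio of 1.48 but an equally weighted ratio of 1.07, and its median was 11.4 CPM in experiment and 32.1 CPM in control libraries. Iars also went opposite ways in the title sets, at 0.50 in set 1 and 2.75 in set 2. Eprs, whose product joins glutamate and proline to their tRNAs in 1 chain, had a ratio of 1.39 pooled and 1.497 with equal weights. The tyrosyl gene Yars stood at 1.36, the leucyl gene Lars at 1.26, the asparaginyl gene Nars at 1.24 and the arginyl gene Rars at 1.23, with an equally weighted ratio of 1.74 for Rars. Lars turned to 0.95 without experiment library 7.

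Nearest to an even level were the histidyl gene Hars at 1.06 and the phenylalanyl subunit genes Farsb at 0.95 and Farsa at 0.87. Without 1 library, Hars reached 0.99 (experiment 43) and Farsb 1.05 (control 40). Another 4 cytosolic genes stood below 0.9 by pooled CPM and below 1 by both weightings, Kars (lysine) at 0.86, Vars (valine) at 0.80, Qars (glutamine) at 0.66 and Wars (tryptophan) at 0.62. Wars had the lowest ratio of the class, and its CPM was 0, 156 and 714 in the lowest, median and highest experiment libraries, against 0, 238 and 786 CPM in control libraries. With equal weights its ratio was 0.705, short of the rule, and 12 of 38 experiment libraries lay above the control median. Wars was lower in both title sets, at 0.45 in set 1 and 0.80 in set 2.

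Per kilobase of exon, the order of the most abundant members differed between the groups. Gars at 123, Nars at 117 and Sars at 115 CPM per kilobase were highest in experiment libraries. In control libraries Nars at 94.9, Wars at 80.6 and Hars at 75.5 CPM per kilobase were highest. The lowest cytosolic levels per kilobase were those of Qars in experiment libraries at 4.16 and of Tars in control libraries at 5.17. Mars2 was the lowest of all members, at 1.12 in experiment and 0.64 CPM per kilobase in control libraries. The order depends on the annotated exon lengths, such as 9282 bases for Aars and 11294 bases for Mars2.

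The calls were also counted by role in the cytosolic class, to be read beside the 7.77% of all genes called higher. Of the 7 members that sit in the multisynthetase complex, the cytosolic assembly of several synthetases with scaffold proteins, 1 was called higher (Dars), and of the 12 outside it 5 were. Of the 12 known targets of the amino acid response 5 were called higher, with a median log2 ratio of 0.52, and of the 7 other cytosolic members 1 was, with a median of -0.08. The summed level of the 12 targets was 2999 CPM in experiment and 2099 CPM in control libraries, a ratio of 1.43 (1.42 to 1.44). The other 7 summed to 696 CPM in experiment and 680 CPM in control libraries, a ratio of 1.02 (1.01 to 1.04). Vars and Wars are on the target list too, and both were below 1. Of the 2 genes that encode enzymes of both compartments, Gars was called higher and Kars stood at 0.86. By the structural class of the catalytic domain, 1 of 9 class I and 5 of 10 class II cytosolic members were called higher. Eprs, whose product joins both glutamate and proline, was counted as class I only. No test of these divisions was made, and the lists were written with earlier results of these data known.

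The cytosolic difference was larger in title set 2, and the difference between the sets was not tested. In set 1 the class sum was 3120 CPM in experiment and 2771 CPM in control libraries, a ratio of 1.13 (1.11 to 1.14). In set 2 it was 4348 CPM in experiment and 2783 CPM in control libraries, a ratio of 1.56 (1.55 to 1.58). Control sums were thus nearly equal in the sets while experiment sums were not. Aars, Cars, Gars and Sars met the rule in both sets, and set 2 added Dars, Eprs, Iars, Nars, Tars and Yars. In set 1, 4 of 19 cytosolic members were called higher beside 9.69% of all genes, and in set 2 the count was 10 of 19 beside 14.6%. In set 1, Iars and Wars were called lower, beside 16.6% of all genes. The median log2 ratio was 0.11 in set 1 and 0.63 in set 2, beside -0.10 and -0.03 over all genes. Set 1 itself holds 2 record blocks, and in these the cytosolic median was -0.051 (titles 1 to 10) and -0.091 (titles 13 to 37), beside -0.12 and -0.11 over all genes.

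Values without the libraries that stand apart were as follows. Without the 25% of libraries highest in glial markers, the cytosolic ratio was 1.44 over 25 experiment and 53 control libraries. Dropping the 6 experiment and 2 control libraries whose summed dopaminergic markers were under 6164 CPM, a limit set after seeing the data, gave a cytosolic ratio of 1.40. It left 7 cytosolic members called higher, beside 7.97% of all genes. Among libraries at or below the median ERCC share, 12 experiment and 40 control, the ratio was 1.12. In these, 3 cytosolic members were called higher (Cars, Sars and Yars) beside 11.0% of all genes, and 2 lower (Vars and Wars) beside 17.1%. Among the 13 experiment and 39 control libraries with at least the median number of genes detected, it was 1.18, with 4 called higher beside 9.60%. Between the summed glial markers and the cytosolic sum, Spearman's rho was -0.49 over 38 experiment libraries and -0.06 over 66 control libraries.

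The share of all genes that met the rule also differed between other divisions of the libraries, and each count of members is read against it. In titles 1 to 10 of set 1, 6 cytosolic members were called higher beside 18.7% of all genes and 3 lower beside 28.6%. In titles 13 to 37 of set 1, 3 were called higher beside 11.6% and 1 lower beside 18.1%. Thinned to 400000 counts, 8 cytosolic members were called higher beside 11.0% and 1 mitochondrial member lower beside 14.9%. Without the libraries high in glial markers, Vars was called lower beside 14.5%. With no filter on low values, Mars2 and Pars2 were the mitochondrial members called higher, beside 26.5% of all genes with a count in a group. By the difference of mean log2(CPM + 1), 2 cytosolic and 4 mitochondrial members were called lower beside 17.0%. A 2-fold rule called Cars higher beside 2.35% of all genes and Iars2 lower beside 3.80%.

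Called lower in the mitochondrial class were 2 members, the isoleucyl gene Iars2 and the histidyl gene Hars2. Iars2 (chr1:185284726-185329396) had 0, 0 and 169 CPM in the lowest, median and highest experiment libraries, against 0, 29.3 and 412 CPM in control libraries. Counts were present in 16 of the 38 experiment and in 47 of the 66 control libraries. The control median was exceeded by 7 experiment libraries. The pooled levels of 16.2 CPM in experiment and 39.02 CPM in control libraries gave a ratio of 0.42 (0.38 to 0.45), which was 0.21 in set 1 and 0.64 in set 2. Its exons share 22.02% of their 50-base stretches with Rab3gap2, which itself stood at 22.7 CPM in experiment and 38.97 CPM in control libraries. No source used here gives the strand setting of the counting, so how reads from the shared stretches were counted cannot be told.

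Hars2 had 0, 0 and 194 CPM in the lowest, median and highest experiment libraries, against 0, 3.95 and 408 CPM in control libraries. Most libraries of both groups were thus near or at 0, and control library 42 alone held 31.3% of the control counts. The pooled ratio was 0.51 (0.47 to 0.55), with 18.7 CPM in experiment and 36.9 CPM in control libraries. Without control library 42 it was 0.72, and the call was lost then, as it was without control library 55. Among libraries at or below the median ERCC share its log2 ratio was 0.053. Hars2 overlaps the start of its cytosolic counterpart Hars, with 3.37% of its 50-base stretches shared. The asparaginyl gene Nars2 came next, at 0, 0 and 116 CPM in the lowest, median and highest experiment libraries and 0, 22.9 and 174 CPM in control libraries. Its ratio of 0.69 (0.64 to 0.75) did not meet the 1.5-fold rule.

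The remaining mitochondrial members had mixed ratios, and 5 of the 16 moved by over 1.5-fold when 1 library was left out. Aars2 had a pooled ratio of 1.70, or 1.10 without experiment library 1, which held 39.8% of its experiment counts. Lars2, the leucyl gene and the only mitochondrial member with a count in every library, stood at 1.53 and turned to 0.95 without experiment library 43. The mitochondrial ribosomal RNA mt-Rnr2 had a ratio of 1.46. Spearman's rho between mt-Rnr2 and Lars2 was 0.27 in experiment and 0.35 in control libraries. For the mitochondrial synthetases without Lars2 it was 0.04 in both groups. A link between mt-Rnr2 and Lars2 counts was not tested. Among members below the filter, the glutamyl gene Ears2 at 1.41 became 0.87 without experiment library 2, and the prolyl gene Pars2 at 1.64 became 0.64 without experiment library 53. Wars2, at 1.10, became 0.042 without experiment library 5, which held 96.2% of the counts. The methionyl gene Mars2 stood at 1.74 and the valyl gene Vars2 at 1.05, which was 0.80 without experiment library 53.

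Sars2 at 1.55, Fars2 at 1.25 and Rars2 at 1.24 lay above 1 by both weightings. Tars2 at 0.83 and Yars2 at 0.84 were below 1 by pooled CPM but above it with equal weights, at 1.07 and 1.09. Cars2 stood at 0.73. The number of members seen per library differed between the groups. After each library was thinned to 400000 counts, the median experiment library had a count for 6 of the 16 mitochondrial members and the median control library for 9. For the cytosolic class the medians were 15 of 19 members in experiment and 17 of 19 in control libraries. Without thinning, the median library had 6.5 mitochondrial members in experiment and 9 in control. All genes were also fewer at this depth, at a median of 6893 genes in experiment and 8459 in control libraries. Thinning left out 4 experiment and 6 control libraries.

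Within amino acids, the cytosolic gene usually stood higher than its mitochondrial counterpart. For 12 amino acids both genes are members, and the cytosolic ratio was above the mitochondrial one by both weightings in 8. In 10 of the pairs the mitochondrial gene passed the filter, and all 8 are among those 10. By pooled CPM the gap was widest for isoleucine, with a log2 ratio of 0.56 for Iars and -1.27 for Iars2, a difference of 1.83. Cysteine followed, with 1.21 for Cars and -0.45 for Cars2, a difference of 1.66. With equal weights the order of these pairs was the other way round, with differences of 1.48 for cysteine and 1.27 for isoleucine. For threonine the values were 0.98 for Tars and -0.27 for Tars2. Alanine and serine differed little by pooled CPM, with both genes of each pair above 0. The exceptions were leucine, arginine by pooled CPM alone, valine and tryptophan.

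**Figure D4:**
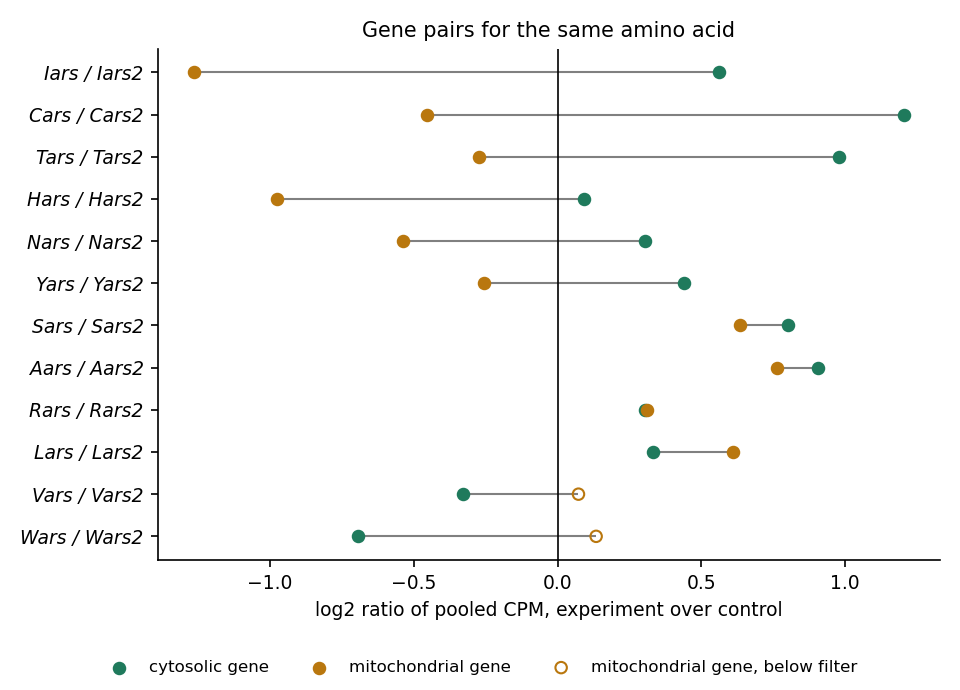
Log2 ratio of pooled CPM, experiment over control, for the cytosolic and mitochondrial gene of each of 12 amino acids, joined by a line; open circles mark mitochondrial genes below the filter. The cytosolic point lies to the right in 8 of 12 pairs, most widely for Iars and Iars2.

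Proteins that work beside the synthetases were counted by the same rule, which called 7.77% of all genes higher and 11.0% lower. Among 7 charging partners (scaffold proteins of the complex and enzymes that correct or modify mitochondrial aminoacyl-tRNA), 1 was called higher. That gene was Aimp2, a scaffold of the multisynthetase complex, at 41.9 CPM in experiment and 24.4 CPM in control libraries, a ratio of 1.72 (1.61 to 1.84). Gatb, a subunit of the mitochondrial amidotransferase, came next at 1.18 and did not meet the rule. Among 6 cytosolic elongation factors, which bring charged tRNA to the ribosome and move it along, 0 were called and 5 lay above 1 by both weightings. Their median log2 ratio was 0.40, and their summed level was 2181 CPM in experiment and 1635 CPM in control libraries. That is a ratio of 1.33 (1.32 to 1.35), with 1.07 in set 1 and 1.61 in set 2, close to the values of the cytosolic synthetases. Eef2, the translocation factor, had a ratio of 1.47 and Eef1g, a subunit of the exchange factor, 1.36, both short of the rule.

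Among 9 mitochondrial translation factors 7 passed the filter, with 0 called higher, 1 lower and a median log2 ratio of -0.11. The factor called lower was Mtif3, an initiation factor, at 6.85 CPM in experiment and 12.2 CPM in control libraries. It had counts in 7 of 38 experiment and 28 of 66 control libraries, so it passed the filter only through the group where it was higher. Its ratio of 0.56 became 0.24 without experiment library 46, which held 58.5% of the experiment counts. Gfm1, an elongation factor, stood at 1.36 without meeting the rule. The amino acid response list, which holds no synthetase, had the highest median of the 4 lists. Of its 16 genes 11 passed the filter, and all 11 were called higher beside 7.77% of all genes, with a median log2 ratio of 1.48. This list too was written with earlier results of these data known, so the count is not independent support. The title sets were far apart, with a median of 0.71 in set 1 and 2.74 in set 2, and with summed ratios of 1.47 in set 1 and 3.53 in set 2. In set 1 the transcription factor gene Atf4 at 0.75 and Sesn2 at 0.30 were below 1. Psat1 of serine synthesis stood at 190 CPM in experiment and 31.2 CPM in control libraries, with a ratio of 2.60 in set 1 and 10.1 in set 2, and Phgdh, the first enzyme of that route, at 82.9 CPM in experiment and 15.3 CPM in control libraries.

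Across libraries, the synthetases on the target list varied with the other response genes in experiment neurons. The summed level of the 16 response genes had a median of 1559 CPM in experiment libraries and 847 CPM in control libraries. The 12 target synthetases had a median sum of 2717 CPM in experiment and 2071 CPM in control libraries, and 15 of 38 experiment libraries lay above the highest control library. The other 7 cytosolic synthetases had medians of 678 CPM in experiment and 682 CPM in control libraries. Spearman's rho between the response sum and the target synthetases was 0.65 over 38 experiment libraries, at 0.41 over the 21 of set 1 and 0.72 over the 17 of set 2. In the 66 control libraries rho was 0.16, with 0.35 over the 31 of set 1 and -0.03 over the 35 of set 2. For the other cytosolic synthetases rho was 0.43 in experiment and 0.04 in control libraries. Over experiment libraries it was 0.38 in set 1, near the 0.41 of the targets, and 0.25 in set 2. For the mitochondrial sum rho was 0.14 in experiment and 0.17 in control libraries. Pearson's r of the log sums for the targets was 0.58 in experiment libraries and 0.54 without the 2 libraries farthest from the median response. In set 1 alone that r was 0.33 and went to 0.14 without the farthest 2. For the other cytosolic synthetases r in set 1 was higher, at 0.43, and 0.38 without the farthest 2. These correlations describe points that share a library's depth and total, and carry no test.

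By gene, the members whose CPM followed the response sum most closely in experiment libraries were Gars with a rho of 0.66, Sars with 0.61 and Cars with 0.55. In control libraries the same genes had rho values of 0.25, 0.18 and 0.06. Aars, in spite of its ratio, had 0.30 in experiment libraries. Aars2 ran the other way, with -0.41 in experiment and 0.28 in control libraries.

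**Figure D5:**
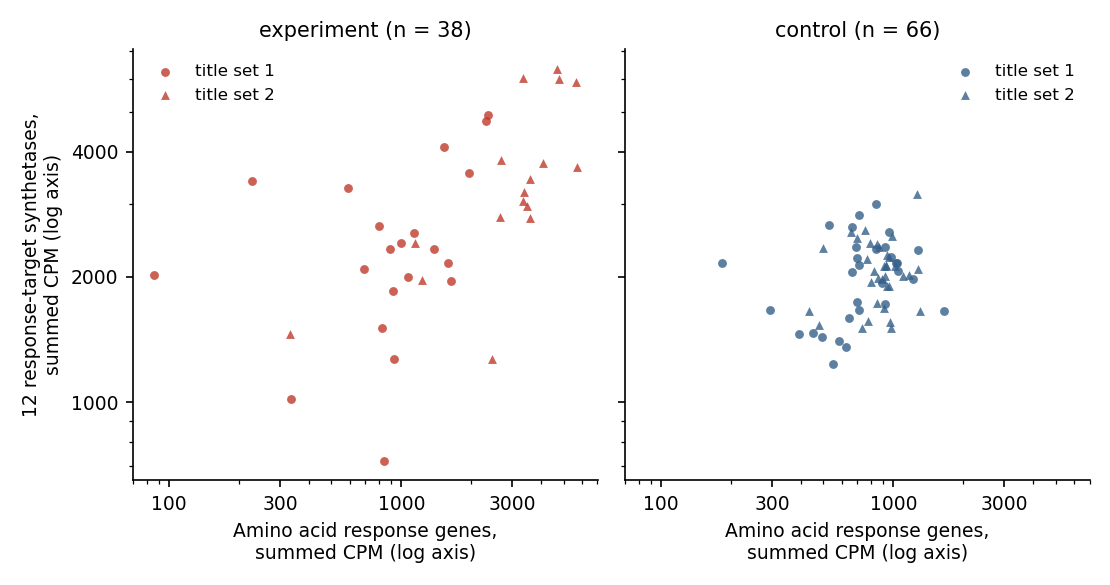
Summed CPM of the 12 response-target synthetases against the summed CPM of 16 amino acid response genes, 1 point per library, on log axes, for 38 experiment (left) and 66 control (right) libraries; circles are title set 1 and triangles title set 2. Experiment points reach further right and higher than control points, with a rho of 0.65 in experiment and 0.16 in control libraries.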

How the data were processed

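Per the labels' protocols, single-neuron RNA went through Smart-seq2 and HyperPlus library preparation. The authors deposited 1 table of counts, whole reads per gene, for 104 libraries, with 45808 gene rows and 92 ERCC rows, which were kept out of library totals. The submitters' processing notes name STAR 2.5.3a, featureCounts 1.5.3 and build mm10, with no role or order. Annotation, strand setting and the handling of reads that match several genes: not given in the sources used here.

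Groups were read from the titles. Since the labels name no animal, a group is 1 sample, and neither p-values nor standard errors were computed. Identical libraries numbered 0. Counts were summed per group and divided by summed gene counts (pooled CPM), with exact Poisson 95% intervals and, for ratios, an exact binomial interval of the experiment share. The reads have no molecular identifiers, so intervals cover counting error only and are narrower than the spread between neurons. The mean of library CPM and the difference of mean log2(CPM + 1) served as alternatives. A group sum under 3 counts was raised to 3 for ratios.

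Up to 5 members per class and direction, ranked by the smaller of both absolute log2 ratios, were described by library values, Nars2 being added to bring the mitochondrial class to 3. Dars, sixth by that ranking, was added after its values were seen. Up to 2 genes per pathway list were named by the same ranking. The members, gene lists and tests were chosen with earlier results of these data known. Positions and exon lengths come from GENCODE M21 (GRCm38), promoters from RefSeq. Shared sequence was counted as 50-base stretches common to annotated transcripts. Alternatives included TMM scaling (edgeR 4.0.16) and DESeq2 1.42.0 size factors, used for scaling only. Some computing steps were also run on simulated data, from which no error rates are given here. Python 3.11.15, pandas 2.3.3 and R 4.3.3 were used.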

Additional observations from a re-analysis of the deposited data

How the results depend on the processing

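No paired analysis was possible because the comparisons rest on no test and a replicate number does not tie an experiment to a control neuron. Values are given in the order cytosolic, then mitochondrial. With libraries weighted equally, the summed CPM ratio of the classes was 1.37 and 1.03 and the mitochondrial median log2 ratio 0.13. As differences of mean log2(CPM + 1), read relative to the median of all genes (-0.38), the summed ratios were 1.29 and 1.01, the medians 0.45 and -0.12, and the members called lower 2 and 4. By this measure 17.0% of all genes were called lower. TMM scaling gave summed ratios of 1.27 and 1.03 and a cytosolic median of 0.27, and DESeq2 size factors gave 1.35 and 1.10. TMM moved the median of all genes to -0.10. With no filter on low values the mitochondrial median was 0.22. Then 2 mitochondrial members were called higher, beside 26.5% of all genes with a count in a group. With a minimum of 30 CPM the mitochondrial sum had a ratio of 1.05. Leaving out each group's highest library, the summed ratios were 1.29 and 1.02, and all genes moved to -0.14. A 2-fold rule called 1 cytosolic member higher (Cars) and 1 mitochondrial member lower (Iars2), beside 2.35% and 3.80% of all genes.

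Title set 1 gave summed ratios of 1.13 and 0.99 and medians of 0.11 and -0.11, with 2 cytosolic members called lower and 2 mitochondrial members higher. Title set 2 gave 1.56 and 1.23 and a cytosolic median of 0.63, with 10 cytosolic and 2 mitochondrial members called higher. Beside these, 9.69% of all genes were called higher and 16.6% lower in set 1, and 14.6% higher in set 2. Within set 1, titles 1 to 10 gave 1.14 and 1.02 and medians of -0.051 and -0.0099 beside -0.12 over all genes, with 3 cytosolic members lower and 1 mitochondrial member higher, and Dars reversed to a log2 ratio of -0.22. Titles 13 to 37 gave 1.12 and 0.95 and medians of -0.091 and -0.39 beside -0.11, with 3 cytosolic members higher and 1 lower and 2 mitochondrial members higher, and Tars reversed to -0.76. The cytosolic median thus changed sign in both blocks, while the cytosolic sum stayed above 1. In titles 1 to 10, 18.7% of all genes were called higher and 28.6% lower. In titles 13 to 37 the shares were 11.6% and 18.1%.

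Thinning gave a cytosolic ratio of 1.38 and a mitochondrial median of -0.051, with 1 mitochondrial member higher and 1 lower. The shares of all genes were 11.0% called higher and 14.9% lower. When libraries high in glial markers were left out, the cytosolic ratio was 1.44 and the medians 0.50 and 0.085. Here 1 cytosolic member was called lower, beside 14.5% of all genes. At or below the median ERCC share the ratios were 1.12 and 0.97 and the cytosolic median 0.046, with 3 cytosolic members higher, 2 cytosolic and 4 mitochondrial members lower, Tars reversed to -0.66 and Hars2 to 0.053. Beside these, 11.0% of all genes were called higher and 17.1% lower. Among libraries with the most genes detected the cytosolic ratio was 1.18, and 3 mitochondrial members were called higher, beside 9.60% of all genes. Leaving out libraries low in dopaminergic markers, an alternative chosen after seeing the data, gave 1.40 and 1.05 and medians of 0.49 and -0.11. Leaving out each library in turn, also chosen then, gave summed ratios between 1.27 and 1.36 for the cytosolic and between 0.98 and 1.12 for the mitochondrial class. The causes of these shifts were not tested. Of 117 alternative values of the named members, 113 kept their direction and the 4 above did not. These members were named for their ratios over all libraries, and the alternatives reuse those libraries. Much of this agreement was therefore fixed in advance. Of the mitochondrial members 5 were below the filter, and single libraries held up to 96.2% of a group's counts.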
